A study of Mus musculus with 4 samples.

Results

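Notch receptors, their ligands and their target genes were examined in whole dorsal skin of mice as 10 genes chosen by name: the receptor genes Notch1, Notch2 and Notch3, the ligand genes Jag1, Jag2 and Dll1, and the target genes Hes1, Hey1, Heyl and Nrarp. All 10 were among the 18194 genes that had a probe set annotated with 1 gene symbol alone, and 9 of them were among the 10916 genes bright enough to be tested. The skin came from male C57B6 mice at postnatal day 54 (P54) and postnatal day 59 (P59), in the middle and towards the end of adult telogen, when hair follicles rest, with 2 arrays per time. No allele, treatment or agent is given for either group, and the labels call each sample a biological replicate without saying how many animals made up a sample, so p-values measure the spread between these samples. The comparison asks which of these transcripts differ between middle and late telogen.

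Notch signalling passes between touching cells. A ligand of the Jagged or Delta family on one cell binds a Notch receptor on its neighbour, the receptor is cut by an ADAM protease and then by gamma-secretase, and the freed intracellular part enters the nucleus and joins the DNA-binding protein RBPJ and a Mastermind coactivator to switch on targets of the HES and HEY repressor families and the feedback inhibitor Nrarp. In skin the pathway is known for driving keratinocytes out of the basal layer towards differentiation, with Notch1 as the main receptor there, for its part in follicle lineages, and for mural cells of vessels, where Notch3 is the main receptor.

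The promoters of Notch1, Notch3 and Nrarp are shown because each holds more than 1 copy of the N box, letters that HES proteins bind. They were chosen with both the letters and the levels known, so nothing about the levels follows from the choice. They are RefSeq sequences of GRCm38.p6, from 250 bases before to 50 bases after the start site, on the strand of the gene. That of Notch1 is chr2:26503773-26504072 on the minus strand, that of Notch3 chr17:32166841-32167140 on the minus strand and that of Nrarp chr2:25180508-25180807 on the plus strand. Capitals mark CACNAG, the N box, on either strand, and CACGTG, an E box that reads the same on both strands.

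Notch1: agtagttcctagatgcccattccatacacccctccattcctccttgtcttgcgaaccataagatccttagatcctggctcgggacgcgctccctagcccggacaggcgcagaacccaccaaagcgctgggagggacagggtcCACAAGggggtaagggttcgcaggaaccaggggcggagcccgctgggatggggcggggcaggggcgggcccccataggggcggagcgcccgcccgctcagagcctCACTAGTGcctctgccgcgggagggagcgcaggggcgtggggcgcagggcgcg

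Notch3: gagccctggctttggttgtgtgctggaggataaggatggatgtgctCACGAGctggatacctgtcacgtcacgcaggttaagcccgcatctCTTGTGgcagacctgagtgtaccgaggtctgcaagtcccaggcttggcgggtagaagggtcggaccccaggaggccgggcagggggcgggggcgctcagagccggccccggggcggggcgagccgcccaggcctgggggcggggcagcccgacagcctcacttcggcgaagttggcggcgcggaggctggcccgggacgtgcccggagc

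Nrarp: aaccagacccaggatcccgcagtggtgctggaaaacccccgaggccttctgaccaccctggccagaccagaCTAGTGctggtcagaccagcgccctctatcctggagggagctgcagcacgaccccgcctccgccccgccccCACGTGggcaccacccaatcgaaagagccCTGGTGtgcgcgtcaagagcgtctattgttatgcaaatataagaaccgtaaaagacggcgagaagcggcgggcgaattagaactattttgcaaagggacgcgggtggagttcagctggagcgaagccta

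Of the 10 genes, 7 had an entry, Dll1 with 2 of the 8 windows. The target genes Hes1, Hey1 and Heyl had none, so Nrarp was the only target gene among these windows. The N box stood in 5 of these 8 windows and in 42.5% of all 32851 promoter windows. Notch1 held it at positions -108, -3 and -1 counted from the start site, where the last 2 overlap on opposite strands, Notch3 at -204 and -159, and Nrarp at -179 and -79. Among the members not shown, Notch2 held 1 N box at -247 and Dll1 held 1 at 14 in 1 of its windows. Jag1 and Jag2 held neither motif. Whether these letters bear on the levels was not tested. The E box stood in the window of Nrarp alone, at -108, and in 7.15% of all windows. The core letters of an RBPJ site, TGGGAA, searched on both strands, stood in 0 of the 8 windows and in 25.6% of all windows, which says only that these letters are not there. The window of Jag2 had 63 CpG dinucleotides and a GC content of 86%, against 23 CpG and 68.3% for Notch1 and 25 CpG and 70% for Notch3.

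Before the values, 1 array needs naming. The array carries control probe sets for the 5′ end, the middle and the 3′ end of the Gapdh transcript. The ratio of 3′ to 5′ intensity for Gapdh was 1.27 and 1.15 in P54 replicates 1 and 2, 1.18 in P59 replicate 1 and 23.8 in P59 replicate 2. For the actin control sets it was 1.36, 1.44 and 1.13 in the first 3 and 3.12 in P59 replicate 2. P59 replicate 2 also stood apart on the first principal component, at 35.4 against -22.5 to -4.33 for the others. For the members and for the other tested pathway genes and markers named with a difference, both P59 arrays are therefore given singly, as levels or as deviations from the P54 mean. Values are log2 of the deposited intensity of a probe set, a group of probes for 1 transcript, so that a difference of 1 is a 2-fold difference, and a gene was tested where the mean of its brightest set exceeded 6.58, the 40th percentile of all genes. Of the marker lists read, all 7 basal and all 11 suprabasal epidermal markers were above the intensity filter. So were all 8 markers each of endothelium and of mural cells. In other lists Msx2 and Tyr were below it. Of all 18194 genes 10916 passed, so passing says little about which tissue was sampled.

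**Figure D1:**
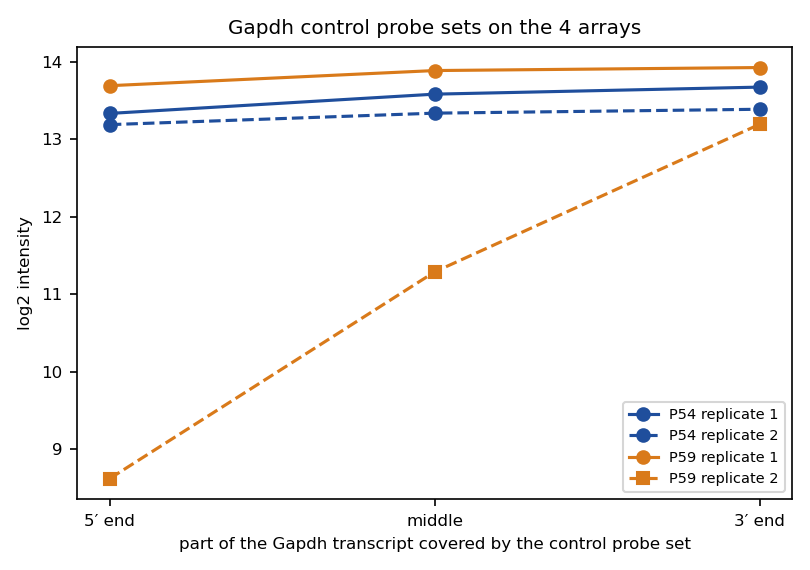
Log2 intensity (vertical axis) of the control probe sets for the 5′ end, middle and 3′ end of Gapdh, with 1 line per array. The 3 other arrays are nearly level, and P59 replicate 2 runs from 8.62 at the 5′ end to 13.20 at the 3′ end.

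Among the receptors, Notch1 was 1.79-fold lower and Notch3 1.43-fold lower at P59, while Notch2 was 1.25-fold higher on average, with overlapping groups. Of the 9 members tested, 8 were lower on average and 1 was higher, beside 41.6% of all tested genes that were lower. None passed an adjusted p of 0.05 (Benjamini-Hochberg, over all genes tested) in limma's fit over all genes, where 0.0183% of genes did. At an unadjusted p under 0.05 there were 2 members, Notch1 and Notch3, both lower, beside 3.01% of all genes in that direction. Both P59 arrays lay below both P54 arrays for 5 members, Notch1, Notch3, Jag2, Dll1 and Nrarp, beside 14.8% of all genes, and above them for 0 members, beside 18.9% of all genes. P59 replicate 1 alone was below the P54 mean for 8 of the 9, beside 50.4% of all genes, and P59 replicate 2 alone for 6 of the 9, beside 36.9%. The median log2 difference of the members tested was -0.19, and that of all genes tested was 0.05. Taken singly, P59 replicate 1 had a median deviation from the P54 mean of -0.31 over the members and P59 replicate 2 of -0.08, against -0.0027 and 0.12 over all genes. A fit without 1 array leaves 1 array in a group, so the spread then came from the other group alone. For these fits only the differences are given here. Notch1 differed by -0.92 without P54 replicate 1, -0.75 without P54 replicate 2, -1.01 without P59 replicate 1 and -0.67 without P59 replicate 2. Notch3 differed by -0.55, -0.48, -0.56 and -0.47 in the same order, and Jag2 by -0.74, -0.73, -1.31 and -0.17. In the fits without a P54 array the spread was that of the 2 P59 arrays, 1 of which had the high Gapdh ratio. Without P59 replicate 1, P59 was that array alone, assumed to vary like the 2 P54 arrays.

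**Figure D2:**
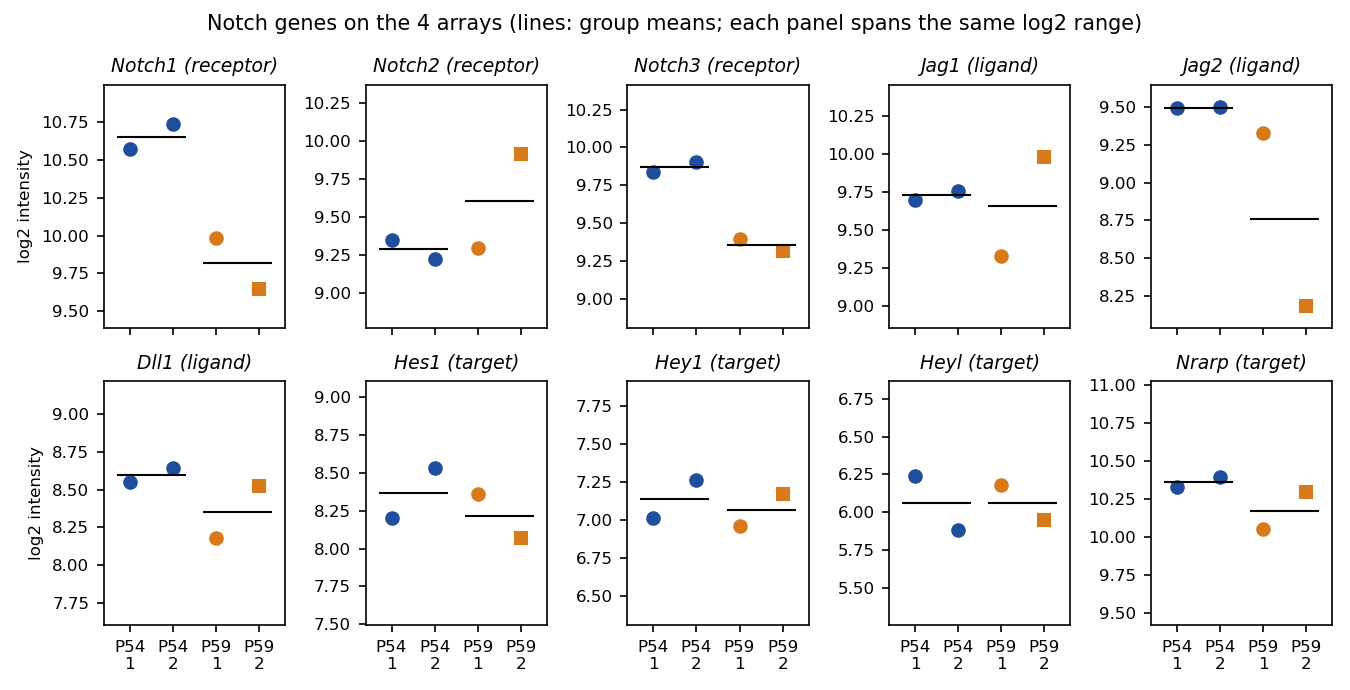
Log2 intensity (vertical axis) of the 10 genes on P54 replicates 1 and 2 (blue) and P59 replicates 1 and 2 (orange, replicate 2 as a square), with group means as lines. Notch1 and Notch3 are lower on both P59 arrays, at 9.99 and 9.65 and at 9.40 and 9.32, whereas Jag2 is low on P59 replicate 2, at 8.19.

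Notch1 had log2 intensities of 10.57 and 10.74 on the P54 arrays and 9.99 and 9.65 on the P59 arrays. Both P59 arrays were lower than either P54 array, and the nearest values of the groups were further apart than the arrays within either group. The log2 difference was -0.84 (SE 0.24, 95% interval -1.36 to -0.31), with a limma p of 0.00525 and an adjusted p of 0.481, and Notch1 ranked 118 of 10916 genes by p. A second probe set of Notch1 lay at 8.20 and 8.56 on the P54 arrays and 7.91 and 6.93 on the P59 arrays, and it too was lower on both P59 arrays. Its difference was -0.96, made up of -0.47 on P59 replicate 1 and -1.45 on P59 replicate 2. Without P59 replicate 2, the array with the high Gapdh ratio, the difference of Notch1 was -0.67 (limma adjusted p = 0.571), and without P59 replicate 1 it was -1.01.

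Notch3 stood at 9.84 and 9.91 on the P54 arrays and at 9.40 and 9.32 on the P59 arrays. The groups were separate and both P59 arrays gave nearly the same level, so the gap between groups was several times the gap within them. The SD within groups was 0.05 at P54 and 0.06 at P59. The difference was -0.51 (SE 0.22, mainly from variance shared across genes, 95% interval -1.01 to -0.02, limma adjusted p = 0.759). It was -0.47 without P59 replicate 2 and -0.56 without P59 replicate 1. Its probe set is of a class that may also match other transcripts. The other set of Notch3 lay at 8.44 and 8.33 on the P54 arrays and 8.03 and 6.15 on the P59 arrays, low mainly on P59 replicate 2, with a difference of -1.30.

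Notch2 stood at 9.35 and 9.23 on the P54 arrays and at 9.30 and 9.92 on the P59 arrays. P59 replicate 1 sat within the range of P54 and P59 replicate 2 above it. The difference was 0.32 (95% interval -0.26 to 0.90; limma adjusted p = 0.934), and it was 0.01 without P59 replicate 2. A second set of Notch2 was near the floor of the arrays, at 4.69 to 4.95 on all 4. Set against Notch2 within each array, Notch1 moved by -0.68 on P59 replicate 1 and -1.63 on P59 replicate 2 from its P54 mean, and Notch3 by -0.48 and -1.18. The mean shift was -1.15 for Notch1 and -0.83 for Notch3, each with an exact two-sided permutation p of 0.333, the smallest that 2 arrays against 2 can give. With Notch1 against Notch3 (-0.32) and Jag2 against Jag1, 4 such pairs were computed, and the Benjamini-Hochberg adjusted value of these exact p-values was 0.444 for the receptor pairs.

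Among the ligands, Jag2 lay at 9.49 and 9.50 on the P54 arrays, at 9.33 on P59 replicate 1 and at 8.19 on P59 replicate 2. Jag2 is a Jagged ligand made in the basal layer and the follicle. Most of its difference of -0.74 (SE 0.34, 95% interval -1.48 to 0.01; limma adjusted p = 0.774) came from P59 replicate 2. Without that array the difference was -0.17, and without P59 replicate 1 it was -1.31. The limma adjusted p was then 0.0221, but that fit sets the single array with the high Gapdh ratio against P54, with the spread taken from the P54 arrays alone. Its second probe set repeated the pattern, at 9.02 and 9.13 on the P54 arrays, 8.93 on P59 replicate 1 and 7.46 on P59 replicate 2. How far the high 3′ to 5′ ratio of that array bears on Jag2 was not tested.

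Jag1, the other Jagged ligand, was at 9.70 and 9.76 on the P54 arrays, 9.33 on P59 replicate 1 and 9.98 on P59 replicate 2. The P59 arrays thus lay on either side of P54. The difference was -0.07 (95% interval -0.66 to 0.51; limma adjusted p = 0.990), at -0.40 without P59 replicate 2 and 0.25 without P59 replicate 1. Its dimmer sets were lower on average, one by -0.67 (7.05 and 7.51 against 6.60 and 6.61) and the other by -0.38 (6.86 and 7.23 against 6.89 and 6.44). The sets of Jag1 therefore disagreed on P59 replicate 2. Jag2 moved against Jag1 by 0.23 on P59 replicate 1 and by -1.56 on P59 replicate 2, with an exact two-sided permutation p of 1.

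Dll1, a Delta ligand, was at 8.55 and 8.64 on the P54 arrays, 8.18 on P59 replicate 1 and 8.52 on P59 replicate 2. The groups did not overlap, but P59 replicate 2 lay only just below P54. The difference was -0.25 (95% interval -0.77 to 0.28; limma adjusted p = 0.947), at -0.42 without P59 replicate 2 and -0.08 without P59 replicate 1. Dll1 had no second probe set.

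**Figure D3:**
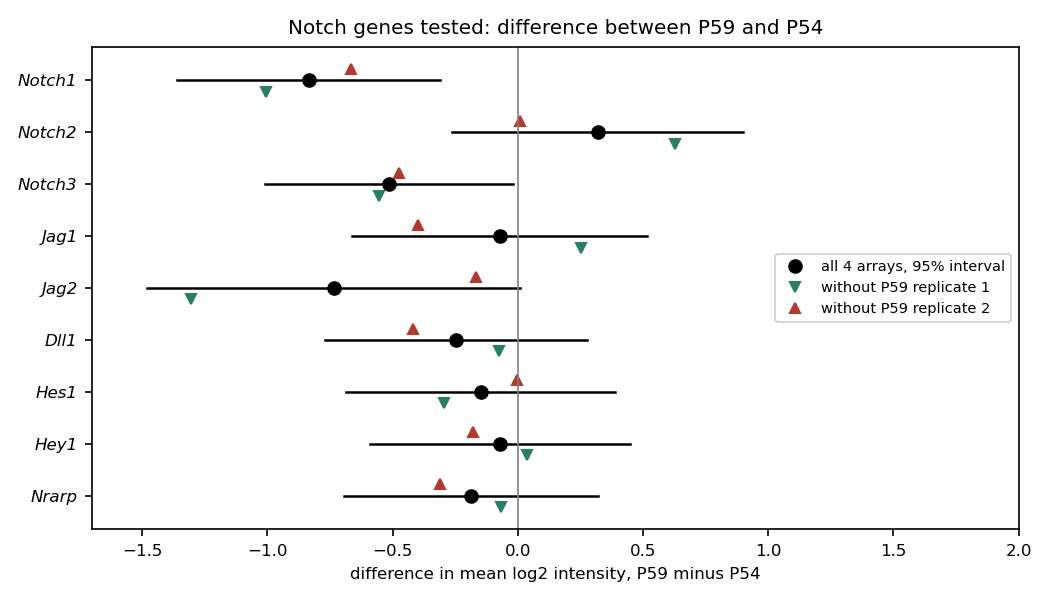
Difference in mean log2 intensity, P59 minus P54 (horizontal axis), for the 9 members tested: black points with 95% intervals use all 4 arrays, and triangles leave out 1 P59 array. The intervals of Notch1 and Notch3 lie below 0, and the triangles of Jag2 stand far apart, at -0.17 and -1.31.

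The 3 target genes tested had log2 differences between -0.19 and -0.07, with intervals that all cross 0. Nrarp, which restrains Notch signalling by binding the Notch and RBPJ complex, was at 10.33 and 10.39 on the P54 arrays, 10.05 on P59 replicate 1 and 10.29 on P59 replicate 2. Both P59 arrays were lower, P59 replicate 2 by little. The difference was -0.19 (95% interval -0.70 to 0.32; limma adjusted p = 0.954), at -0.31 without P59 replicate 2. The dimmer set of Nrarp lay at 8.55 and 8.94 on the P54 arrays and 8.22 and 7.61 on the P59 arrays, a difference of -0.83 (limma adjusted p = 0.859 in the fit over all probe sets). The direction was shared by both sets, and the size was not. Averaging all sets of a gene gave -0.51 for Nrarp, -0.91 for Notch3 and a median of -0.37 over the members, against 0.02 over all genes. The dimmer sets of Nrarp and Notch3 deviated most on P59 replicate 2, the array with the high Gapdh ratio. There they stood at -1.14 and -2.24, against -0.53 and -0.35 on P59 replicate 1.

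Hes1, a repressor and the most widely used target of the pathway, was at 8.20 and 8.53 on the P54 arrays and at 8.36 and 8.07 on the P59 arrays. The groups overlapped, with a difference of -0.15 (95% interval -0.69 to 0.39; limma adjusted p = 0.971). Hey1, a related repressor known from vessels, was at 7.01 and 7.27 on the P54 arrays and at 6.96 and 7.17 on the P59 arrays, again overlapping (-0.07, 95% interval -0.59 to 0.45; limma adjusted p = 0.988). Both intervals leave room for a difference of up to about the size measured for Notch3. Heyl, the third HEY repressor, was not tested: its brightest set lay between 5.88 and 6.24, below the filter of 6.58, with group means of 6.06 at both times. Without P54 replicate 2 the signs of Hes1 and Hey1 turned, to 0.02 and 0.05.

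Across the 10 genes 19 probe sets were measured, and 15 of them passed the intensity filter. Of these 15, 14 were lower on average at P59. The share over all probe sets was not computed for this measure. Over genes tested it was 41.6% with the brightest set and 47.0% with the mean of all probe sets. For 10 of the 15 sets both P59 arrays lay below both P54 arrays, beside 15.7% of all sets above the filter. Notch1, Notch3, Jag2 and Nrarp gave 2 of these 10 each, and sets of 1 gene are not independent of each other. The sizes of the deviations differed between the arrays. On P59 replicate 2 the sets used for Notch1 and Jag2 lay more than 1 log2 unit below P54, as did 3.22% of genes tested, and 4 of the 6 further sets above the filter did so too, those of Notch1, Notch3, Jag2 and Nrarp, beside 11.8% of all further sets above the filter. On P59 replicate 1 none of the 19 did, beside 0.486% of genes and 2.48% of further sets. Over the 4202 genes with several sets above the filter, the sets of 1 gene spread by a median of 0.40 on P59 replicate 2 and 0.23 on P59 replicate 1, as deviations from their P54 means.

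**Figure D4:**
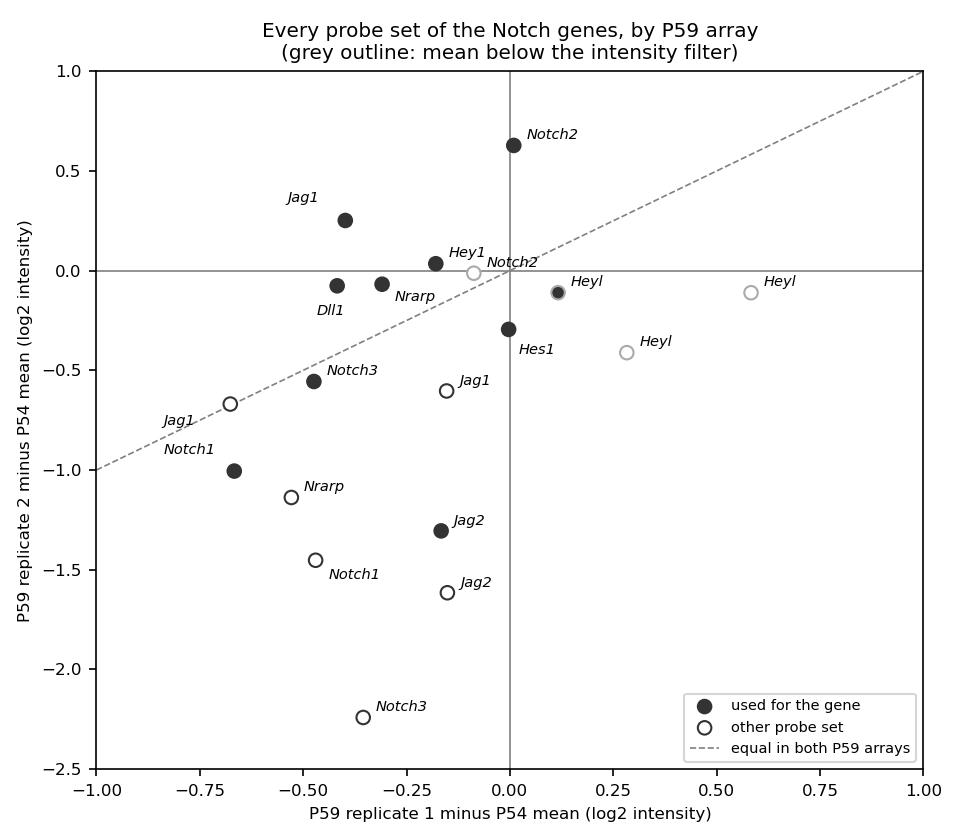
Deviation of each of the 19 probe sets from its P54 mean in log2 intensity, on P59 replicate 1 (horizontal axis) and P59 replicate 2 (vertical axis), with filled points for the set used per gene. Most points lie left of 0, and the unused set of Notch3 is the lowest on P59 replicate 2, at -2.24.

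The rest of the pathway lay on both sides of 0. Of 52 other genes listed by role, 48 had a probe set of their own and 40 were tested. At P59 19 of them were higher and 21 lower (52.5%), beside 41.6% of all genes tested that were lower. Their median difference was -0.01, against 0.05 over all genes tested. None passed the adjusted threshold in limma, 3 had an unadjusted p under 0.05 (1 higher, 2 lower, beside 6.49% of all genes in either direction), and 7 were higher and 13 lower without overlap, beside 18.9% and 14.8% of all genes. Notch4, the receptor of endothelium, was at 6.96 and 6.23 on the P54 arrays and 6.87 and 7.17 on the P59 arrays (difference 0.43, limma adjusted p = 0.896). The Delta ligand gene Dll4 was below the filter on all 4 arrays, between 5.55 and 6.41, as were the target genes Hes5 (5.28 to 5.62) and Hey2 (3.65 to 4.06). Dlk2, a Delta-like protein without the usual receptor-binding domain, was the 1 further ligand gene tested, at -0.50 (limma adjusted p = 0.800), with 7.99 and 8.38 on the P54 arrays and 7.59 and 7.77 on the P59 arrays.

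Of 8 genes of receptor cleavage tested, 5 were lower and 3 higher, beside 41.6% of all genes tested that were lower. Aph1a, a subunit of gamma-secretase, was at 9.09 and 9.41 on the P54 arrays and at 8.70 and 8.57 on the P59 arrays. The groups were separate, with a difference of -0.62 (SE 0.23; limma adjusted p = 0.648). Its paralog Aph1b differed by -0.39 (8.39 and 8.64 against 8.04 and 8.21; limma adjusted p = 0.879). The proteases Adam10 and Adam17, which make the first cut, differed by 0.05 (-0.01 on P59 replicate 1 and 0.10 on P59 replicate 2) and 0.13 (-0.16 and 0.41).

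Among genes that act in the nucleus, Rbpj was at 9.70 and 9.41 on the P54 arrays and at 9.82 and 10.03 on the P59 arrays, higher without overlap by 0.37 (limma adjusted p = 0.892). The acetyltransferase gene Kat2b differed by 0.31 (10.51 and 10.31 against 10.53 and 10.91). Spen, the corepressor that RBPJ binds where Notch is silent, was at 8.09 and 8.30 on the P54 arrays and 7.80 and 7.49 on the P59 arrays (difference -0.55; limma adjusted p = 0.759). Cir1, a corepressor that links RBPJ to histone deacetylases, was at 7.42 and 7.56 on the P54 arrays and 7.95 and 8.10 on the P59 arrays (difference 0.53; limma adjusted p = 0.743). Thus the corepressor genes stood on both sides, with 3 of 6 higher and 3 lower, beside 41.6% of all genes tested that were lower.

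The Fringe glycosyltransferase genes Lfng and Mfng, whose products tune which ligand a receptor answers, differed by -0.20 (-0.07 on P59 replicate 1 and -0.32 on P59 replicate 2) and -0.23 (-0.39 and -0.07). Of the ubiquitin ligases that pull ligands into the signalling cell, Mib1 differed by 0.29 (0.14 and 0.45) and Neurl1b by 0.24 (0.10 and 0.37). Among Deltex genes, Dtx1 was lower without overlap (7.07 and 7.03 against 6.72 and 6.56, difference -0.41) and Dtx3l higher without overlap (8.70 and 8.69 against 9.21 and 9.05, difference 0.43). For these genes the limma adjusted p ranged from 0.846 to 0.952.

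**Figure D5:**
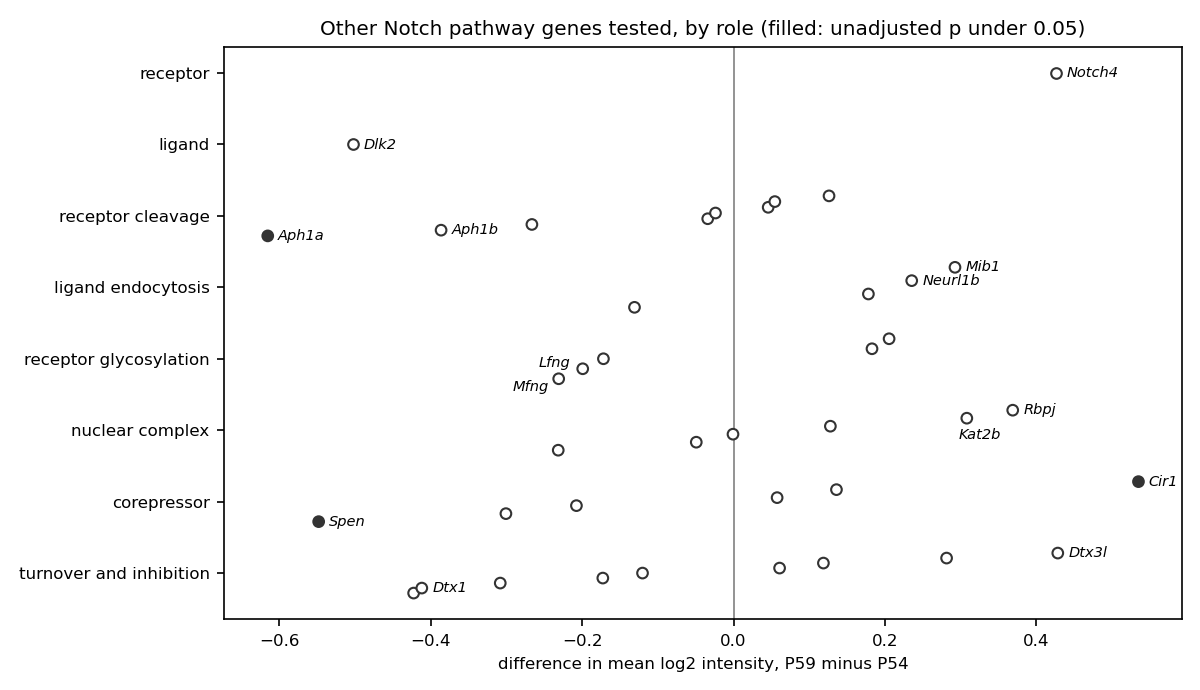
Difference in mean log2 intensity, P59 minus P54 (horizontal axis), of the 40 other pathway genes tested, by role, with filled points for an unadjusted p under 0.05. Points lie on both sides of 0 in most roles, with Aph1a at -0.62 and Cir1 at 0.53 as the lowest and highest.

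Genes linked to Notch in keratinocytes were 4 lower and 1 higher of 5 tested, beside 41.6% of all genes tested that were lower. The lower ones include Trp63, which opposes Notch. For 3 genes both P59 arrays lay below both P54 arrays, beside 14.8% of all genes. None passed the adjusted threshold in limma, and 0 had an unadjusted p under 0.05, beside 6.49% of all genes. That 0 did not hold under each alternative: Krt1 had a limma p of 0.0200 with an intensity trend and 0.0139 without P59 replicate 1, and Trp63 a limma p of 0.0200 with the mean of all probe sets. Cdkn1a, the cell cycle inhibitor p21, was at 10.73 and 11.02 on the P54 arrays and at 10.60 and 10.49 on the P59 arrays (difference -0.33, and -0.58 with the mean of all probe sets). The spinous keratin genes Krt1 and Krt10 differed by -0.49 and -0.12. For Krt1 the deviation was -0.24 on P59 replicate 1 and -0.74 on P59 replicate 2, the array with the high Gapdh ratio, and for Krt10 it was -0.14 and -0.10. Ivl, which encodes involucrin, differed by 0.04, at -0.25 and 0.33 on the P59 arrays. Trp63, the basal factor that opposes Notch, differed by -0.25, with 10.82 on P59 replicate 1 and 11.32, 11.33 and 11.33 on the other arrays. With the mean of all its probe sets the difference of Trp63 was -0.89.

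Markers of several skin cell types were lower on average at P59 beside Notch1 and Notch3. The counts below stand beside 41.6% of all 10916 genes tested that were lower on average and 14.8% that were lower without overlap. All 7 basal epidermal markers were lower, 6 of them without overlap, with a median of -0.45. Their summed intensity was 35895 to 38932 at P54 against 30217 and 26544 on P59 replicates 1 and 2. Col17a1, a hemidesmosome collagen, differed by -0.61 (limma adjusted p = 0.638), at -0.59 on P59 replicate 1 and -0.64 on P59 replicate 2. The integrin gene Itgb4 differed by -0.87 (limma adjusted p = 0.649), but by -0.34 without P59 replicate 2 and -1.40 without P59 replicate 1. All 7 bulge markers were lower, 5 of them without overlap, by a median of -0.20 and by -0.05 for the smallest difference. Their summed intensity was 19641 to 19830 at P54 against 16521 and 18075. That sum was weighted to Krt15, the brightest of the list, at 13.8 on both P54 arrays. The smallest p belonged to Fgf18 (-0.72, at -0.75 and -0.70) and Lgr5 (-0.72). The value of Lgr5 was -0.44 without P59 replicate 2 and -0.99 without P59 replicate 1, and averaging its probe sets gave -0.39. Of 11 suprabasal markers 9 were lower (median -0.15; 83729 to 85876 at P54 against 70968 and 76284). Of 8 mural markers 7 were lower (median -0.13), with summed intensity of 9955 to 11196 at P54 against 9392 and 9783, the lowest being Cspg4 (-0.99, at 8.61 and 8.58 against 8.07 and 7.15) followed by Tagln (-0.37). Without P59 replicate 2 Tagln differed by -0.09, and without P59 replicate 1 by -0.64. Of 8 endothelial markers 6 were lower (median -0.18; 2256 to 2632 at P54 against 2393 and 2070). Of 7 markers of the inner root sheath and matrix of the growing follicle, 6 were above the filter and 5 of these were higher. The summed intensity of the list was 2038 to 2120 at P54 against 11761 and 3510. The smallest p belonged to Tchh (3.92) and Krt27 (3.70). Tchh was at 7.33 and 5.42 on the P54 arrays and 11.4 and 9.20 on the P59 arrays. Krt27 was at 6.90 and 4.52 against 10.31 and 8.51. The P54 arrays thus differed between themselves for both genes. The sums do not show this, since Gata3 was the brightest of the list at P54, at 10.5 and 10.8. Msx2 was below the filter. All 6 macrophage markers were higher (median 0.56; 6216 to 7116 at P54 against 7124 and 10502), 4 of 5 adipocyte markers lower (median -0.44), 4 of 6 fibroblast markers higher (median 0.03), 3 of 6 muscle markers higher (median 0.04), both Schwann cell markers lower and 2 of 4 melanocyte markers higher. The part of these markers in the levels of Notch1, Notch3 and the other members was not tested, and in whole skin fewer cells of a type and less RNA per cell cannot be told apart.

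The genes whose 4 values ran closest to those of Notch1, by the root mean square difference of log2 values centred on each gene's own mean, were Bicdl2 (0.04), Nufip2 (0.06) and Stk40 (0.07). For Notch3 they were Nrip3, AI661453 and Tspan9, each at 0.01. With 4 arrays many genes run close together: 185 genes lay within 0.2 of Notch1 and 1143 within 0.2 of Notch3.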

How the data were processed

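Expression was measured on 4 arrays of total RNA from dorsal skin, 2 of P54 and 2 of P59. The authors deposited a table of probe set intensity on the linear scale (6.41 to 24000), for which the submitters' processing notes name RMA and Affymetrix Expression Console. No version or genome build is given in the sources used here. Their log2 was used, with no pseudocount.

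Of 45101 probe sets, 34958 were annotated by GEO's platform table, which can be old, with 1 gene symbol, 932 with several and 9211 with none listed. By Entrez identifier 34754 of the first matched the RefSeq annotation of GRCm38.p6, with 0 renamed. The set with the highest mean stood for a gene, and the genes tested were those whose mean log2 intensity exceeded the 40th percentile (6.58). The groups were compared by limma 3.58.1 under R 4.3.3 (lmFit, eBayes without trend), with Benjamini-Hochberg adjustment over all 10916 genes tested. The number of arrays limits the precision: the fit has 2 residual degrees of freedom. The prior that limma estimated from all genes tested added 8.19. Each SE, interval and p of the reported fit therefore rests more on variance shared across genes than on the gene's own 4 arrays. The procedure was tested on simulated data, with changes larger than those measured for the members and the same noise, the median spread between P54 arrays, on all arrays. That setting covers neither changes of the size seen here nor an array such as P59 replicate 2. The members and lists were chosen with earlier results of these data known. Named were all members, per role of the other pathway genes up to 2 with the smallest p beside Notch4, Dll4, Rbpj, Hes5, Hey2 and Lfng, the keratinocyte genes, up to 2 per marker list, and the 3 genes closest to each member at an unadjusted p under 0.05. Adam10 and Adam17 were added after their values were seen. The alternatives changed the filter, the probe set rule, the normalization, the pseudocount, the variance model or the arrays, 1 at a time.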

Additional observations from a re-analysis of the deposited data

How the results depend on the processing

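The count of members past the adjusted threshold in limma was 0 in all alternatives run other than leaving out P59 replicate 1, when Jag2 was among the genes that passed in a comparison of 1 P59 array whose spread came from the P54 arrays alone. Leaving out 1 array at a time it ranged from 0 to 1 and the count of members at an unadjusted p under 0.05 from 0 to 4. The count of all genes past the adjusted threshold was 71 without P54 replicate 1, 34 without P54 replicate 2, 401 without P59 replicate 1 and 29 without P59 replicate 2. Notch1 was lower in all 13 alternatives fitted over the genes (-1.01 to -0.67), as was Notch3 (-0.91 to -0.47). The count of all genes past the threshold, 2 in the reported fit, was 0 without the intensity filter, at the 60th percentile, with the mean of all probe sets, after quantile normalization again and with a pseudocount of 16 (704 to 1122 genes at an unadjusted p under 0.05 in limma, 458 for the 60th percentile), 47 with median centring and 155 with the replicate block. The replicate block left 0 members past the adjusted threshold and put Notch1 and Jag2, not Notch3, at an unadjusted p under 0.05. In that fit limma gave the genes in effect 1 common standard error, so p followed the size of the difference alone. The move of Notch3 and the 155 genes past the threshold therefore do not reflect the spread of single genes. The labels do not say that the numbers pair animals, and the deviations of same-numbered arrays correlated at -0.04 over genes. Array weights, chosen after the data were seen, gave both arrays of a group equal weight and called 9 genes. The median of the members was -0.37 with the mean of all probe sets, against 0.02 over all genes. Median centring moved the median of all genes from 0.05 to 0.10. Signs turned with the mean of all probe sets for Dtx3l (-0.10), and with 1 array left out for Hes1 (range -0.31 to 0.016), Hey1 (-0.20 to 0.055), Jag1 (-0.40 to 0.25), Ivl (-0.25 to 0.33) and Trp63 (-0.50 to 0.0085, and -0.89 with the mean of all probe sets). The cause was not tested.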
